A study of Mus musculus with 6 samples.

Results

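RNA levels in pancreatic islets of mice exposed to bisphenol-A before birth were compared with those of vehicle islets, taking both doses together. Bisphenol-A is a plastics monomer with estrogen-like activity, and islets are the clusters of hormone-secreting cells in the pancreas. The comparison was chosen by treatment label and used all 6 arrays of the series, of which 4 carried RNA of exposed offspring and 2 RNA of vehicle offspring. All mice were wild-type males of the outbred OF-1 stock, and their islets were taken at postnatal day 30. The dams had received vehicle, or bisphenol-A at 10 µg/kg/day (called BPA10) or at 100 µg/kg/day (called BPA100), on gestation days 9 to 16. The number of mice per array differed: the first vehicle array pooled 5 mice, the second BPA10 array pooled 2, and every other array held islets of 1 mouse. The question was which differences from vehicle the islets of both doses shared.

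Dividing cells copy their DNA in S phase and separate the copies in mitosis. Mitosis needs the kinase Cdk1 with its cyclins, the spindle that pulls the chromosomes, and the kinetochores that attach chromosomes to it. The anaphase-promoting complex then releases the sister chromatids, and cytokinesis cuts the cell apart. Many of the genes involved are switched on late in the cell cycle through promoter elements known as the CHR and the CCAAT box. Beta cells, the insulin-producing cells of the islet, divide often in young mice and seldom in adults. An islet preparation also holds alpha, delta and PP cells, vessels, macrophages and fibroblasts, together with some enzyme-secreting acinar cells of the surrounding tissue.

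The arrays gave 1 signal per probe set, on a linear scale that sets each array to the same trimmed mean, and values were compared as log2(signal + 1). Differences are means of the 2 dose group means minus the vehicle mean, with the standard error (SE) of limma's moderated fit. Median signals were 33 to 40 per array, and correlations between arrays of one group were all 0.968. The labels do not tell whether the arrays stand for separate litters, so the p-values measure only the spread between these arrays. The markers of islet cells were bright on every array: Iapp, a beta-cell peptide, lay between 9386 and 12296 and Gcg, which encodes glucagon, between 8754 and 12171. Male-specific Kdm5d gave 215 to 309 and female-specific Xist 32 to 40, as the labelled sex calls for. Acinar enzymes were measured on every array too, with Prss2, a trypsinogen, between 7436 and 13512, so the preparations were not islet cells alone.

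No probe set passed at an adjusted p under 0.05 with limma (0 of 27022, 0%, smallest adjusted p = 0.206). At an unadjusted p under 0.05, 1537 did, 729 of them higher with bisphenol-A (2.70%) and 808 lower (2.99%). These counts became 461 and 323 without the second vehicle array, and 7 probe sets passed adjustment without the first. Differences shared by the exposed arrays were counted in a second way, as probe sets whose 4 exposed signals all lay above, or all below, both vehicle signals. There were 1937 above (7.17%) and 1982 below (7.33%), so the directions were near balance. Arrays that differed only at random would put a share of 0.0667 on each side, and both counts are near that share. Centring each array on its median turned these into 2121 above and 1194 below. Taking each of the 13193 genes by its brightest tested probe set, 1015 lay above without overlap (7.69%) and 848 below (6.43%). A gap of at least 0.5 on the log2 scale between the groups was left by 30 genes above (0.227%) and 9 below (0.0682%). Of those 30 genes, 16 belong to the list of mitosis and cytokinesis genes, and 0 of the 9 do.

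**Figure D1:**
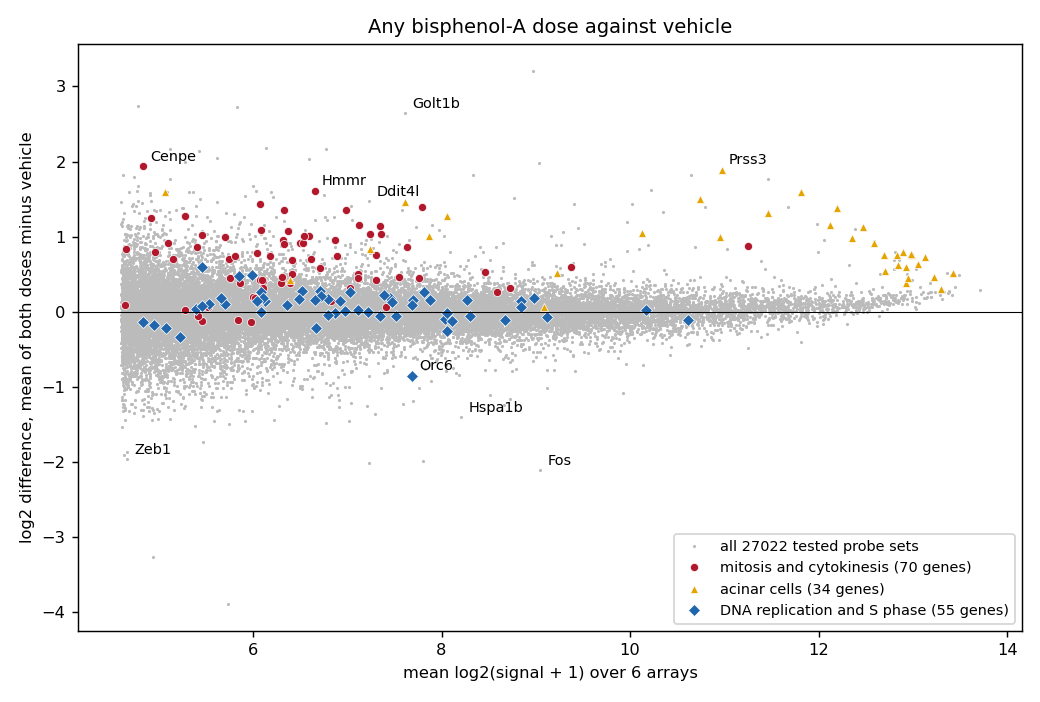
Log2 difference between the mean of both bisphenol-A doses and vehicle (vertical axis) against mean log2(signal + 1) over the 6 arrays (horizontal axis), with 1 point per tested probe set. Genes of mitosis (red circles) lie mostly above 0, with a median of 0.70, acinar genes (yellow triangles) all lie above 0, and S phase genes (blue diamonds) scatter around a median of 0.09.

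Among the 27 gene lists, that of mitosis and cytokinesis held the most genes whose exposed arrays all lay above vehicle. The lists were chosen with earlier results of these data known and hold 4 to 71 tested genes, so this ranking is no test. Of the 70 tested members, 66 were higher than in vehicle islets and 4 lower, with a median difference of 0.70 (1.63-fold), against a median of 0.01 and a share of 51.5% higher over all genes. At an unadjusted p under 0.05, 44 were higher (all genes 3.08%) and 0 lower (all genes 1.92%), and 0 passed after adjustment over all probe sets. In 45 members the exposed arrays lay wholly above the vehicle arrays (all genes 7.69%), and in 0 wholly below (6.43%). The mean level of the list, relative to the vehicle mean, was 0.13 and -0.13 on the vehicle arrays, 0.79 and 0.83 on the BPA10 arrays and 0.53 and 0.59 on the BPA100 arrays. Every exposed array thus stood above both vehicle arrays, and the BPA10 arrays stood above the BPA100 arrays. Without the second vehicle array the count of 44 became 29, with a median of 0.57. The 4 members with lower values were Kif18b, Ckap2l, Espl1 and Kif2c, at -0.05 to -0.13. In a bulk sample, more dividing cells and more RNA of these genes per cell cannot be told apart, nor can the kind of cell that divides.

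The genes that act at the onset of anaphase are given first. Cdc20 activates the anaphase-promoting complex, and it gave signals of 136 and 97 with vehicle, 332 and 377 in BPA10 islets and 250 and 276 in BPA100 islets. Its lowest exposed signal was well above its highest vehicle signal, and the difference was 1.40 ± 0.17 (SE, n = 4 and 2; limma adjusted p = 0.251). Its other probe set differed by 0.85, also without overlap. Ube2c, which carries ubiquitin to that complex, gave 76 and 59 with vehicle, 200 and 213 with the lower dose and 138 and 148 with the higher (1.35 ± 0.17, adjusted p = 0.252). Pttg1, or securin, the inhibitor that the complex destroys, went from 136 and 67 to 226 and 193 in BPA10 and 201 and 229 in BPA100 islets (1.14 ± 0.26). For all 3 the groups did not overlap. Pttg1 rested more on single vehicle arrays, with 0.63 without the second and 1.65 without the first. Among the 9 genes of anaphase onset and chromatid separation, 8 were higher, 6 at an unadjusted p under 0.05 (all genes 3.08%), with a median of 0.74.

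Spindle and cytokinesis genes came next. Hmmr, a protein of the spindle and a hyaluronan receptor, had the smallest p of the whole comparison. Its vehicle signals were 49 and 45, its BPA10 signals 171 and 181 and its BPA100 signals 121 and 118 (1.61 ± 0.17, adjusted p = 0.206). Both doses were far above vehicle, and 3 further probe sets gave 0.94 to 1.26, each without overlap. Tpx2, which builds spindle microtubules and activates Aurora A, differed by 0.99 ± 0.22. Of 12 spindle genes and motors 9 were higher, with a median of 0.58. The 11 cytokinesis genes were all higher, 8 of them at an unadjusted p under 0.05 (all genes 3.08%), with a median of 0.90. Among them Ect2, the exchange factor that sets the cleavage furrow, had signals of 90 and 73 with vehicle, 214 and 184 in BPA10 and 162 and 167 in BPA100 islets. That is a difference of 1.15 ± 0.17 (adjusted p = 0.290) with no overlap. Prc1, which bundles the central spindle, differed by 1.01 and the kinesin Kif23 by 1.28.

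The 15 kinases, cyclins and partners were all higher, with a median of 0.74. Of these, 11 had an unadjusted p under 0.05 (all genes 3.08%) and 9 were without overlap (7.69%). Nek2, a centrosome kinase, gave 42 and 27 with vehicle, 120 and 126 in BPA10 and 70 and 70 in BPA100 islets (1.43 ± 0.23). Cks2, a small partner of Cdk1, gave 119 and 86 against 231 and 244 and then 181 and 182 (1.03 ± 0.17), and its other probe set differed by 0.97. Cdk1 itself differed by 0.75 ± 0.16, cyclin B2 (Ccnb2) by 0.91 ± 0.20 and Aurora A (Aurka) by 0.95 ± 0.24, all without overlap. Aurka gave 0.59 without the first vehicle array. Cyclin A2 (Ccna2), which also acts in S phase, differed by 0.50 and its groups overlapped: the second BPA10 array gave 117, below the 129 of a vehicle array, although its other probe set (0.89) was without overlap. Plk1 overlapped too, with 23 on a vehicle array and 22 on a BPA100 array.

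At the kinetochore and centromere, all 14 genes were higher and 10 of them did not overlap (all genes 7.69%), with a median of 0.60. Cenpa, the histone that marks the centromere, gave 41 and 43 with vehicle, 120 and 122 with the lower dose and 115 and 85 with the higher (1.36 ± 0.20, adjusted p = 0.291). Cenpe, a kinetochore motor, had the largest difference of the list (1.94 ± 0.60), but at signals of 26 and 4 in vehicle islets against 37 to 51. At such low signals the vehicle arrays differed from each other by more than the exposed arrays did, and the difference was 0.72 without the second vehicle array and 3.15 without the first. Spc25, of the Ndc80 complex, gave 2065 and 1290 against 2163, 3226, 3637 and 3083 (0.87 ± 0.22, or 0.53 without the second vehicle array). Those signals were far above those of Nuf2 (58 to 133) and Spc24 (50 to 80) of that complex, and the cause was not tested. The last role held 9 genes of chromosome structure, transcription and cycling cells, all higher, with a median of 0.46. Mki67, the usual marker of cycling cells, gave 128 and 136 against 235, 279, 213 and 241 (0.86 ± 0.15). Topoisomerase Top2a, at 0.45 ± 0.16, was also without overlap, but its other probe set gave 0.19 with overlap. Foxm1, a transcription factor of these genes, overlapped: vehicle gave 184 and 47, BPA10 327 and 230, BPA100 245 and 72 (1.03 ± 0.58). Its difference was 0.05 without the second vehicle array, 2.0 without the first and -0.17 with the acinar level of the arrays as a covariate. The other probe set of Foxm1 gave 0.24.

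**Figure D2:**
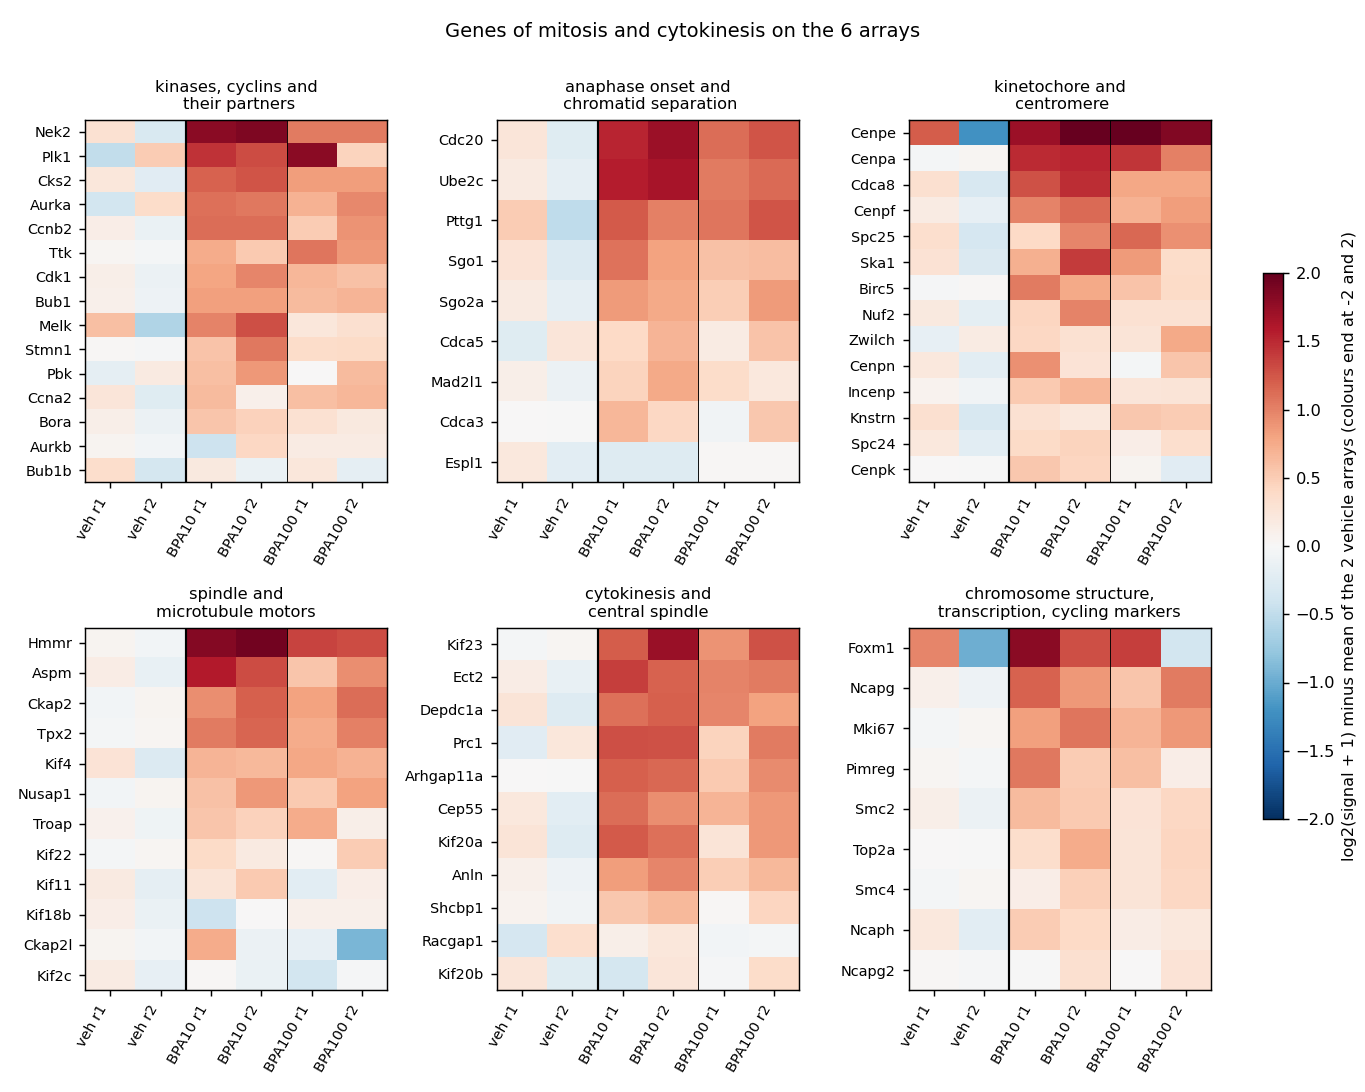
Level of each of the 70 tested mitosis and cytokinesis genes on each array, as log2(signal + 1) minus the mean of the 2 vehicle arrays (colour, ending at -2 and 2). Rows are genes grouped by role and columns are arrays, with the vehicle pair on the left of the thick line. Most rows are red on all 4 exposed arrays, and deeper red on the BPA10 pair, as for Nek2, Cdc20, Ube2c and Hmmr.

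The probe sets of these genes were mostly of one direction. Of 108 tested probe sets, 98 were higher (all probe sets 49.2%). Without overlap, 64 were above vehicle (all probe sets 7.17%) and 0 below (7.33%). Of 27 members with at least 2 tested probe sets, 21 had all of them above 0 and 6 had all of them without overlap. The members that left a gap of at least 0.5 were Arhgap11a, Bub1, Cdc20, Cenpa, Cenpf, Ckap2, Cks2, Depdc1a, Ect2, Hmmr, Kif23, Mki67, Nek2, Pttg1, Tpx2 and Ube2c. Beside them stood genes of other kinds, among them the interferon genes Rsad2, Mx1 and Siglec1, the trypsinogen Prss3, the potassium channel Kcnk13 and the zinc transporter Slc30a3.

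Since so many of these genes were higher on the same arrays, their promoters were searched for the letters of the CHR core (TTTGAA) and of the CCAAT box (CCAAT), on both strands. The windows were RefSeq promoters on GRCm38.p6, from 250 bases before to 50 after the start. Of the 70 tested members 55 had a promoter in that table, 61 promoters in all, and 57.4% held both motifs, against 6.95% of all 32851 promoters. TTTGAA stood in 68.9% (all promoters 17.9%) and CCAAT in 75.4% (37.4%). In the S phase list, both stood in 11.3% of 53 promoters, with TTTGAA in 15.1% and CCAAT in 62.3%. Members without overlap held both in 61% of 41 promoters and the other tested members in 50% of 20, so the letters mark the list more than its separated part. A match shows only that the letters are there. In 11 of the members without overlap both motifs fell within the last 150 bases before the start, with promoters on 1 chromosome left aside. The 4 of these 11 members with the largest differences are printed to show their layout. Each runs 5′ to 3′ along the gene, with matches to either motif, on either strand, in capitals. Cdc20 lies on the minus strand (chr4:118437344-118437493), Ube2c on the plus strand (chr2:164769779-164769928), Ect2 on the minus strand (chr3:27153879-27154028) and Depdc1a on the plus strand (chr3:159495283-159495432).
Cdc20: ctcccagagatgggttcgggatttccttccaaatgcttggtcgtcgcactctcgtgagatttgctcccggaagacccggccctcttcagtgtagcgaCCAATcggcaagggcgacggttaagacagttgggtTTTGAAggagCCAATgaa
Ube2c: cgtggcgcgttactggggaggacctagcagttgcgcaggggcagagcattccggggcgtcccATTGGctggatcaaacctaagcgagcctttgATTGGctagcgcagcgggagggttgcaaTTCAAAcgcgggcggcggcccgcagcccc
Ect2: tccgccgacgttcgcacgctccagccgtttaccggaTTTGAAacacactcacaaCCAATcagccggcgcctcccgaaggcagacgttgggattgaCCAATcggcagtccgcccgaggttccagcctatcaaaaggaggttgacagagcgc
Depdc1a: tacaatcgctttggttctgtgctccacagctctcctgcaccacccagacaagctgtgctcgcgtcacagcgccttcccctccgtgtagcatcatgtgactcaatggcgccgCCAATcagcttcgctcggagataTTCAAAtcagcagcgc
Cdc20, Ube2c and Ect2 each held 2 CCAAT matches and 1 TTTGAA match, and Depdc1a 1 of each.

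Genes of DNA replication and S phase did not share this. Of 55 tested members 35 were higher and 20 lower, with a median of 0.09, and 4 lay above without overlap (all genes 7.69%) and 3 below (6.43%). At an unadjusted p under 0.05 0 were higher (all genes 3.08%) and 1 lower (1.92%). That 1 was Orc6, a subunit of the origin recognition complex, with 279 and 332 in vehicle, 163 and 222 in BPA10 and 146 and 154 in BPA100 islets (-0.85 ± 0.17, adjusted p = 0.561). All exposed arrays were below vehicle there. Mcm10, which helps to start replication, differed by 0.49 ± 0.23. Of 23 genes of G1 cyclins, kinases and inhibitors 15 were higher, with a median of 0.12 (-0.06 without the second vehicle array). Only 1 had an unadjusted p under 0.05 and was higher (all genes 3.08%). It was Cdkn2c, the inhibitor p18 of Cdk4 and Cdk6, at 201 and 241 against 357, 383, 288 and 322 (0.61 ± 0.14, adjusted p = 0.673), with no overlap. Cdk4 differed by -0.20 ± 0.13 and Ccnd2, the main D cyclin of beta cells, by 0.17 ± 0.11, or -0.01 after quantile normalization.

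Markers of other cells were set beside the mitosis list. All 34 acinar markers were higher with bisphenol-A, with a median of 0.78. An unadjusted p under 0.05 was reached by 13 (all genes 3.08%), but only 3 were without overlap (7.69%). Their summed signal was 181816 and 83782 on the vehicle arrays, 256930 and 225227 on the BPA10 arrays and 225437 and 120803 on the BPA100 arrays. The second BPA100 array was thus below the first vehicle array. Prss3, another trypsinogen, was an exception, with 635 and 1106 against 3780 and 4599 in BPA10 and 3401 and 1575 in BPA100 islets (1.89 ± 0.31, adjusted p = 0.374). The acinar median became 0.10 without the second vehicle array and 1.46 without the first. The mitosis median was 0.57 and 0.74 in the same fits. With the acinar level of each array as a covariate, the mitosis median was 0.63 and 34 members stood higher with an unadjusted p under 0.05.

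The mean levels of the other marker lists did not separate the exposed from the vehicle arrays. Stellate cell and fibroblast markers stood at 0.18 and -0.18 with vehicle, 0.67 and 0.00 on the BPA10 and -0.24 and -0.48 on the BPA100 arrays. Their 33 genes had a median of 0.08, and 0 lay above and 1 below without overlap (all genes 6.43%). Leaving out 1 array moved that median between -0.14 (without the second vehicle array) and 0.27 (without the second BPA10 array), so its direction was not stable. That one was Des, or desmin, at 75 and 59 against 24, 35, 21 and 19 (-1.43 ± 0.29), and its other probe set differed by -0.61 with overlap. Macrophage markers stood at 0.34 and -0.34 with vehicle and between -0.39 and 0.31 with bisphenol-A, and their median of -0.07 became 0.24 without the first vehicle array. Duct markers stood at -0.10 and 0.10 against -0.34 to 0.30. Of 17 tested duct genes, 3 lay below without overlap (all genes 6.43%) and 0 above (7.69%). At an unadjusted p under 0.05, 2 of them were lower (1.92%) and 0 higher (3.08%). Endothelial markers had a median of 0.03, with Aplnr, the apelin receptor, at 322 and 518 against 887, 637, 821 and 715 (0.89 ± 0.21). The other probe set of Aplnr gave 0.26 with overlap. The 9 tested lymphocyte markers stood at 0.94 on the first BPA10 array and between 0.06 and 0.21 on the other exposed arrays, where vehicle had 0.18 and -0.18. Schwann cell and nerve markers had 7 of 12 genes higher, with a median of 0.17. At an unadjusted p under 0.05, 3 were higher (all genes 3.08%) and 0 lower (1.92%). Without overlap, 2 lay above (7.69%) and 0 below (6.43%). Their mean level was -0.04 and 0.04 with vehicle and -0.13 to 0.43 with bisphenol-A. Of the defining markers, Cd3e of T cells gave 4 to 18 and lay below the brightness filter.

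**Figure D3:**
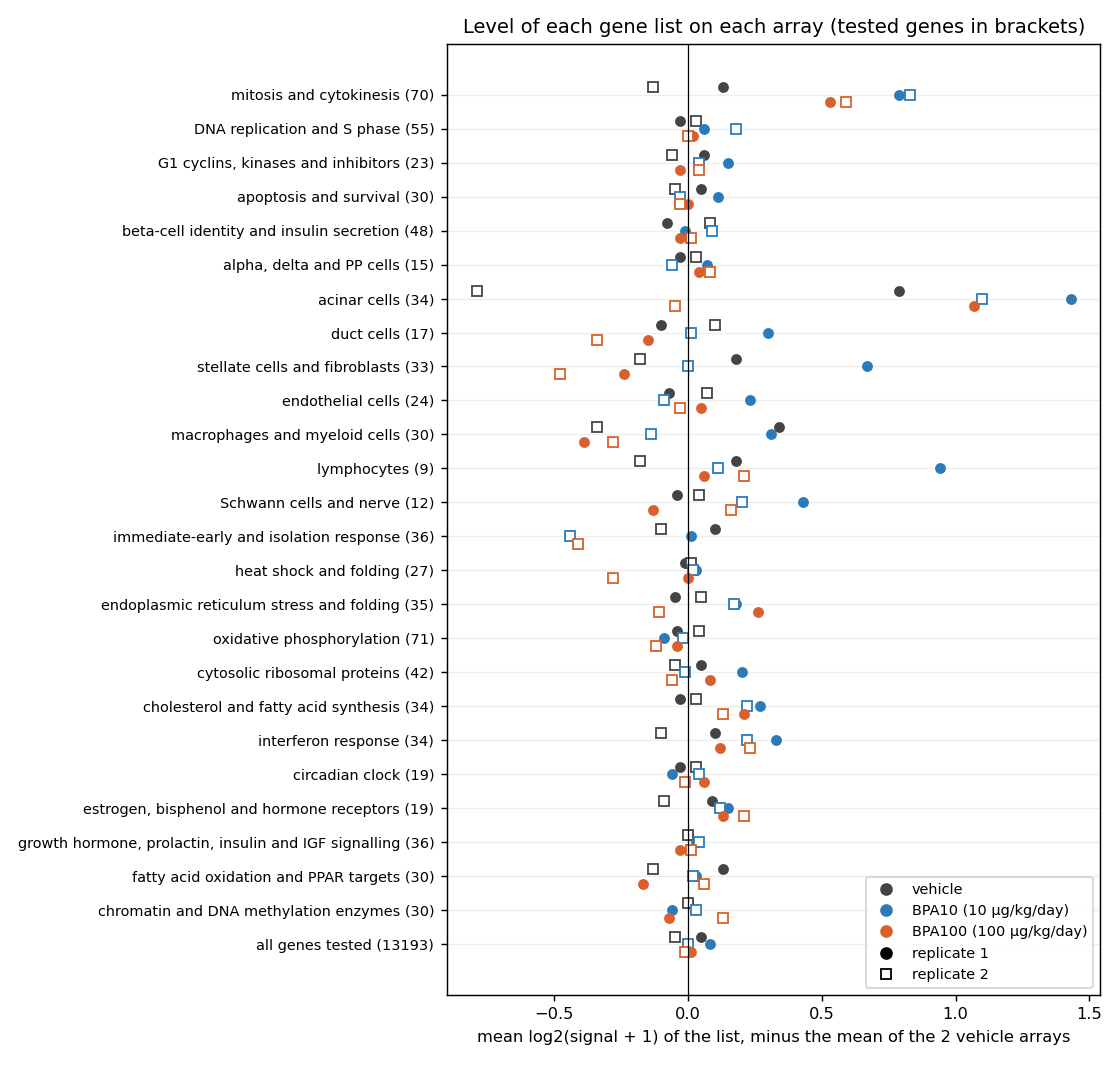
Mean log2(signal + 1) of each gene list on each array, minus the mean of the 2 vehicle arrays (horizontal axis), for lists of tested genes (rows, number of genes in brackets). Filled circles are replicate 1 and open squares replicate 2 of each group. The mitosis list stands at 0.53 to 0.83 on the exposed arrays, apart from its vehicle pair, while the acinar list ranges from -0.05 to 1.43 and its vehicle pair from -0.79 to 0.79.

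Lower values shared by the exposed arrays included stress-response genes. Hspa1b, the inducible heat shock protein of the Hsp70 family, gave 535 and 595 with vehicle, 368 and 233 in BPA10 and 157 and 155 in BPA100 islets (-1.40 ± 0.19, adjusted p = 0.290). The exposed arrays were all lower, the BPA100 pair lowest. The 2 further probe sets of the gene gave -1.25 and -1.02, again without overlap. Dnajb1, the co-chaperone of Hsp70, gave 514 and 493 against 261, 290, 289 and 334 (-0.78 ± 0.13, adjusted p = 0.374). Its other probe set differed by -0.62, again without overlap. Hspa1a, whose sequence is nearly identical to that of Hspa1b so that their probes may share signal, differed by -0.98 and overlapped. Of all 27 tested heat shock and folding genes, these included, 16 were higher and 11 lower, with a median of 0.03. At an unadjusted p under 0.05, 4 were lower (all genes 1.92%) and 1 higher (3.08%). Without overlap, 3 lay below (6.43%) and 1 above (7.69%). Dnaja1, another co-chaperone, differed by -0.27 ± 0.11 and was without overlap.

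Heat shock genes are switched on through the heat shock element, whose core was searched as GAANNTTC or TTCNNGAA on both strands. The 22 of 27 genes in the RefSeq table had 31 promoters, of which 54.8% held a core, against 15.1% of all promoters and 11.5% of those of the mitosis list. The last 150 bases before the start of Hspa1b (chr17:34959239-34959388, minus strand, GRCm38.p6) are printed with the bases of the core in capitals, since it was the lower gene with the smallest p on the list.
Hspa1b: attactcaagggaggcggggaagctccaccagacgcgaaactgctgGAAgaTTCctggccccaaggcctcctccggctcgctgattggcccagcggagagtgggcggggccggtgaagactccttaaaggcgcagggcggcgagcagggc

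Immediate-early genes, whose RNA is made soon after a stimulus such as the isolation of the tissue, as a list stood lower on 3 of the 4 exposed arrays. Of 36 tested genes 25 were lower, with a median of -0.24. It was -0.13 without the second BPA10 array and -0.06 on the arrays of 1 mouse. At an unadjusted p under 0.05, 5 were lower (all genes 1.92%), and 4 lay below without overlap (6.43%). Nr4a1, a nuclear receptor of this class, gave 192 and 334 with vehicle against 125 and 64 in BPA10 and 95 and 94 in BPA100 islets (-1.45 ± 0.30, adjusted p = 0.598). Junb, a subunit of AP-1, gave 77 and 60 against 47, 27, 20 and 24 (-1.25 ± 0.31). Both were lower on all exposed arrays. Fos, another AP-1 subunit, was not: it gave 2349 and 841 with vehicle, 2165 and 183 in BPA10 and 165 and 168 in BPA100 islets (-2.11 ± 0.82). Egr1 had the same outlying array, with 988 and 521 against 1222, 189, 173 and 211. Without the second BPA10 array, Fos differed by -1.22 and Egr1 by -0.57 instead of -1.24. The list stood at 0.01 on that first BPA10 array and between -0.44 and -0.41 on the other exposed arrays, against 0.10 and -0.10 with vehicle.

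Clock genes differed in both directions. The 19 tested genes had a median of -0.03, but 3 were higher (all genes 3.08%) and 4 lower (1.92%) at an unadjusted p under 0.05. Without overlap were 3 above (7.69%) and 4 below (6.43%), not all of them the same genes. Without the second vehicle array the median turned to 0.08. Arntl, the positive factor of the clock, gave 198 and 185 with vehicle and 262, 306, 374 and 282 with bisphenol-A (0.66 ± 0.16). Cry1, a repressor, gave 155 and 101 against 257, 248, 416 and 214 (1.13 ± 0.27), and Nfil3, a repressor of clock output, differed by 0.71 ± 0.16. All exposed arrays were higher for these 3. Nr1d2, a repressor of Arntl, gave 1257 and 1941 against 1174, 981, 661 and 1077 (-0.71 ± 0.23). Dbp, an activator that opposes Nfil3, differed by -0.60 ± 0.20 but overlapped on 1 array, where it gave 686 against 677 with vehicle. Cry2 differed by -0.60 ± 0.22 and Per3 by -0.49 ± 0.20. The 5 other probe sets of Per3 gave -0.57 to 0.21, with 1 of them below vehicle without overlap. None of the clock genes passed after adjustment, and the lowest limma adjusted p was 0.664. In mouse tissues Arntl, Cry1 and Nfil3 are known to peak at other hours than Dbp, Nr1d2 and Per3, and the labels do not give the hour at which islets were isolated.

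Genes of cholesterol and fatty acid synthesis differed by less. Of 34 tested genes 27 were higher, with a median of 0.22, 9 of them at an unadjusted p under 0.05 (all genes 3.08%), and 8 lay above without overlap (7.69%). The list stood at -0.03 and 0.03 with vehicle and at 0.27, 0.22, 0.21 and 0.13 with bisphenol-A. Idi1, which makes the isoprene units of cholesterol, gave 413 and 447 against 708, 595, 557 and 542 (0.47 ± 0.12). Insig1, a feedback regulator of the pathway, gave 839 and 863 against 1145, 1038, 1095 and 1248 (0.41 ± 0.11). The sterol enzymes Nsdhl and Cyp51 differed by 0.45 and 0.44 and the desaturase Scd2 by 0.44. Cyp51 overlapped, with 452 on a BPA10 array and 479 on a vehicle array. Fasn, the fatty acid synthase, lay below vehicle on all exposed arrays by 0.26 on the log2 scale.

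Interferon-response genes included several that were apart. Of 34 tested genes 24 were higher, with a median of 0.16, 8 at an unadjusted p under 0.05 (all genes 3.08%), and 11 lay above without overlap (7.69%) against 1 below (6.43%). Rsad2, the antiviral enzyme viperin, gave 93 and 111 with vehicle, 411 and 221 in BPA10 and 232 and 219 in BPA100 islets (1.35 ± 0.24, adjusted p = 0.420). The 2 further probe sets, at 0.87 and 1.03, were without overlap as well. Mx1, an antiviral GTPase, had low signals of 20 and 7 against 29, 43, 50 and 35 (1.61 ± 0.44). Iigp1, Ifit2 and Rtp4 differed by 0.72, 0.59 and 0.47, all without overlap. The list stood at 0.10 and -0.10 with vehicle and at 0.12 to 0.33 with bisphenol-A, so the lowest exposed array was close to the higher vehicle array. Without the first vehicle array the median was 0.28.

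Oxidative phosphorylation genes differed by small amounts. Of 71 tested genes 50 had values below vehicle and 21 above, with a median of -0.06 (-0.00 without the second vehicle array). At an unadjusted p under 0.05, 4 were lower (all genes 1.92%) and 0 passed adjustment, and 13 lay below without overlap (all genes 6.43%) against 0 above. Ndufa6, a subunit of complex I, gave 1747 and 1589 against 1285, 1409, 1406 and 1367 (-0.29 ± 0.11). Ndufs4 of the same complex differed by -0.29 ± 0.12 and Atp5g2 of the ATP synthase by -0.26 ± 0.11. The 3 other probe sets of Ndufs4 gave -0.14 to 0.12 with overlap. The list as a whole stood between -0.12 and -0.02 on the exposed arrays and at -0.04 and 0.04 with vehicle, which overlaps.

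In growth hormone, prolactin, insulin and IGF signalling, 36 genes had a median of 0.10 (-0.02 to 0.13 over the other settings). Without overlap, 3 lay above (all genes 7.69%) and 3 below (6.43%), both near the shares over all genes. At an unadjusted p under 0.05, 3 were lower (all genes 1.92%) and 1 higher (3.08%). Ddit4l, an inhibitor of the growth kinase mTOR, differed most. It gave 81 and 70 with vehicle, 146 and 100 in BPA10 and 454 and 296 in BPA100 islets (1.47 ± 0.23, adjusted p = 0.365). Both further probe sets, at 1.13 and 1.67, were without overlap too. The BPA100 arrays were the highest for this gene, unlike those of mitosis. Cish, a suppressor of cytokine signalling induced by growth hormone and prolactin, was lower on all exposed arrays, at 321 and 407 against 178, 206, 141 and 252 (-0.92 ± 0.23). Socs2, of the same family, differed by -0.54 ± 0.20 with overlap on 1 array, and Igf2r, the clearance receptor of IGF2, by -0.37 ± 0.14. Of 19 tested receptors and targets of estrogen, bisphenol and other hormones 13 were higher, with a median of 0.13 (0.05 without the second vehicle array). Without overlap, 3 lay above (all genes 7.69%) and 1 below (6.43%). The list stood at 0.09 and -0.09 with vehicle and at 0.12 to 0.21 with bisphenol-A. The estrogen receptor genes Esr1 and Esr2 gave 11 to 22 and 2 to 8 and lay below the brightness filter.

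Genes of beta-cell identity and insulin secretion had a median of 0.06, with 29 of 48 higher, 10 above without overlap (all genes 7.69%) and 4 below (6.43%). The median was 0.01 without the first vehicle array and 0.14 without the second. G6pc2, the islet glucose-6-phosphatase, gave 7731 and 7080 against 9312, 9224, 9949 and 8685 (0.33 ± 0.11). Its difference was 0.26 to 0.39 leaving out arrays, but fell to 0.03 at the lowest over all other settings. The insulin gene Ins2 gave 3546 and 3552 with vehicle, 4873 and 4797 in BPA10 and 4139 and 2680 in BPA100 islets (0.18 ± 0.16), which overlaps. The transcription factors Pdx1 and Nkx6-1 differed by 0.15 ± 0.11 and 0.05 ± 0.16. Hormones of the other islet cells differed by 0.27 (Gcg), 0.25 (Sst) and 0.28 (Ppy), and these and Iapp turned to between -0.06 and -0.04 after quantile normalization. It also turned Hadh, a mitochondrial enzyme that restrains insulin secretion, from 0.26 to -0.04, and the median of the list to -0.06. Among the brightest probe sets, with signals of 305 to 13400, 9.7% lay above vehicle without overlap and 7.37% below. In the dimmer groups of probe sets, 5.6% to 6.97% lay above and 7.0% to 7.58% below. The highest signal was 11218 and 12185 on the vehicle arrays and 13410 to 15158 on the exposed arrays. How far this adds to the 10 genes above vehicle was not tested.

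**Figure D4:**
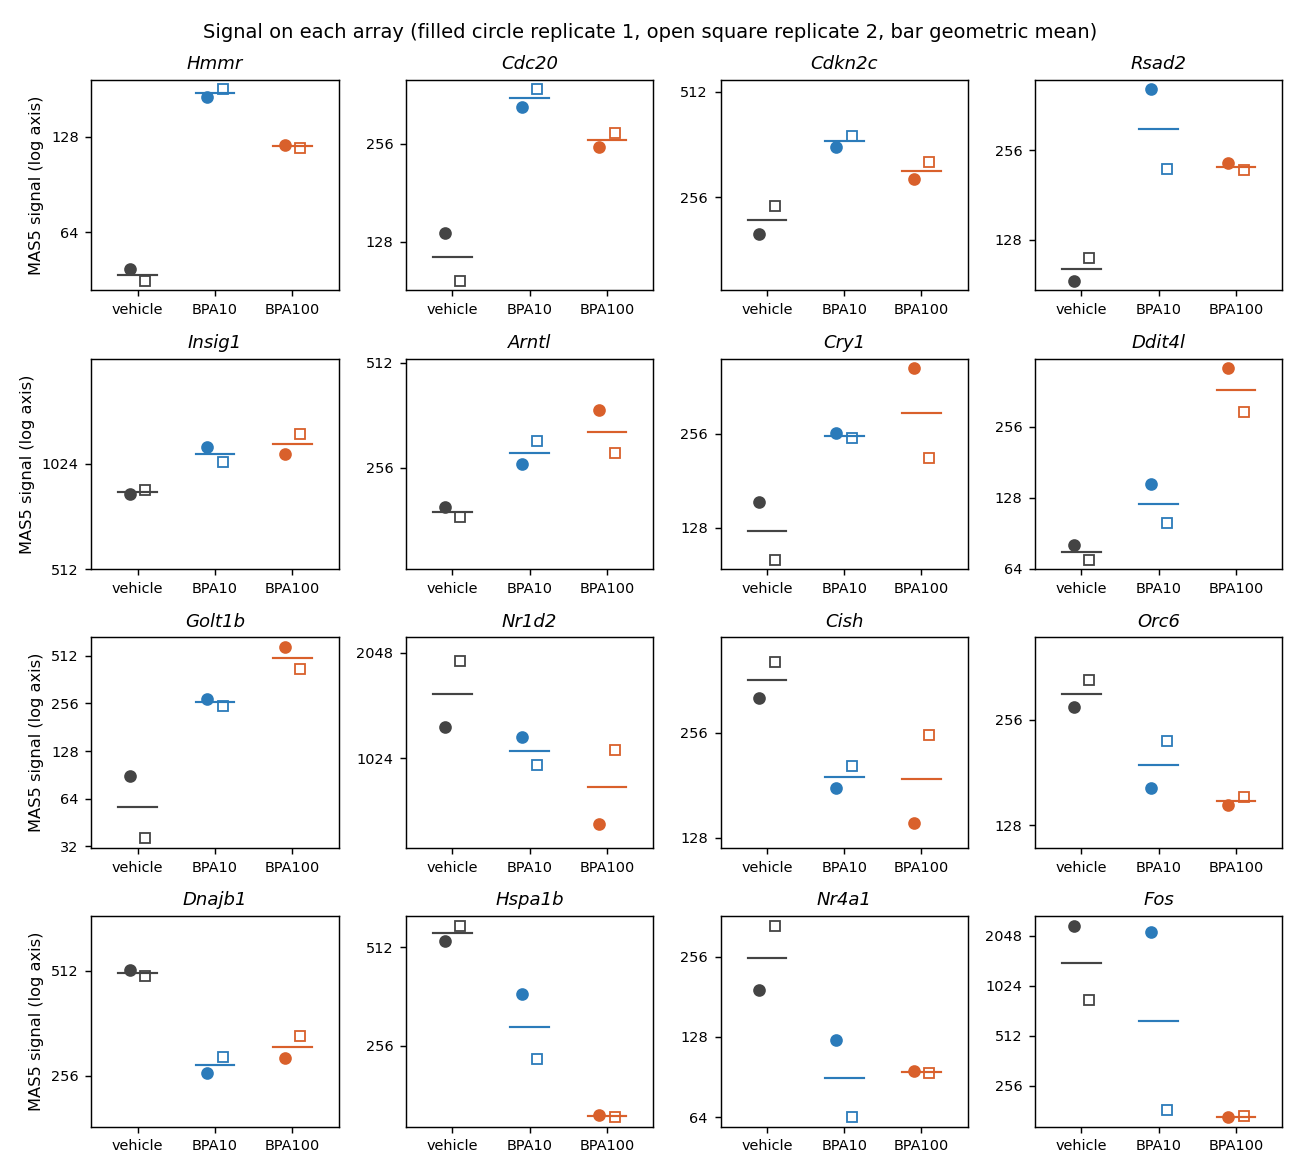
Signal of 16 genes on each array (vertical axis, log scale; horizontal axis, treatment group). Filled circles are replicate 1, open squares replicate 2, and bars the geometric mean of a group. The exposed points lie wholly above vehicle for genes such as Hmmr, Cdc20, Rsad2 and Ddit4l and wholly below for Hspa1b, Nr4a1 and Orc6, while Fos has 1 BPA10 point of 2165 among the vehicle points.

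For several genes with the largest shared differences, other probe sets of the gene did not show them. Golt1b, a Golgi transport protein, gave 89 and 36 with vehicle, 274 and 247 in BPA10 and 581 and 421 in BPA100 islets (2.64 ± 0.32, adjusted p = 0.251). Its difference was 3.28 without the first vehicle array and 2.0 without the second. The other probe set gave 0.18 with overlap. Kcnk13, a potassium channel with 1 tested probe set, gave 23 and 9 against 59, 60, 67 and 56 (1.99 ± 0.37). Zeb1, a repressor of epithelial genes, gave 72 and 53 against 7, 9, 29 and 27 (-1.96 ± 0.33), where its 2 other probe sets differed by -0.02 and 0.21. Among the 8 largest higher genes, 5 had other tested probe sets, and in 2 of these all were without overlap in the same direction. Among the 8 largest lower genes 7 had others, and this held in 1. Over all genes with at least 2 tested probe sets (5854), 62 had every one above vehicle without overlap and 36 every one below.

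The doses were also compared with each other, with 0 probe sets passing (limma, smallest adjusted p = 0.897), and 1283 at an unadjusted p under 0.05. In the mitosis list 58 of 70 genes were lower at BPA100 than at BPA10, 7 at an unadjusted p under 0.05 (all genes 2.65%), and 0 were higher at that p (all genes 1.66%). The list's median difference from vehicle was 0.80 for BPA10 and 0.56 for BPA100. Acinar markers had the same order, with medians of 1.13 and 0.51 and all 34 genes lower at BPA100. Hspa1b differed from vehicle by -0.94 in BPA10 and -1.85 in BPA100 islets (limma unadjusted p of the dose difference 0.00267, adjusted 0.898). Ddit4l differed by 0.68 and 2.27 (unadjusted p 0.000256, adjusted 0.897). These are the values of each dose against the same 2 vehicle arrays, so they are not independent of each other.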

How the data were processed

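Islet RNA was amplified through 2 cycles of cDNA synthesis and hybridized as biotin-labelled cRNA, per the labels' protocols. Repeated amplification can distort levels. The authors deposited a linear intensity for every probe set, made with MAS5 per the submitters' processing notes (its version is not given in the sources used here). These are whole numbers whose mean, without the lowest and highest 2%, is 150 on every array, so each value is relative to its array's overall signal.

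Of 45101 probe sets, 64 controls were left out. Platform annotation named 1 gene for 34945, several for 932 and none for 9160 (the last 2 kinds were tested but are not named), and RefSeq held 34741. Probe sets with a mean log2(signal + 1) at or above the 40th percentile (27022, for 13193 genes) were fitted with limma 3.58.1 in R 4.3.3 (lmFit, eBayes with trend) on 3 group means. The median SE was 0.21, and the number of arrays limits the precision. Tests are 2-sided, adjusted by Benjamini-Hochberg over all tested probe sets, with a threshold of 0.05. An exact permutation test of 4 arrays against 2 cannot give a p below 0.0667, so none was used. The fit was tested on simulated data.

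The 27 gene lists and the named genes were chosen with earlier results of these data known. The rule for names took the 8 largest differences per direction at an unadjusted p under 0.01 and without overlap (adjusted p under 0.05 first), 5 genes per direction with all probe sets without overlap, up to 4 members of each list by p, fixed islet, cell cycle and stress genes, and 4 per direction by the dose difference. Names outside it were chosen after their values were seen. Each gene is given by its brightest tested probe set. The alternatives are in the closing section.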

Additional observations from a re-analysis of the deposited data

Results flagged for a closer look

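Among the 4 exposed arrays, the gap of the highest or lowest to its nearest neighbour was set against the whole range (Dixon's test). Chance marks about 1 in 20 groups, and 13 of 118 values were marked. The first BPA10 array stood apart, highest, in Rsad2 (0.908 of the range), Dhcr7 (0.871), Fos (0.960), Egr1 (0.899), Per3 (0.944) and the mean of the immediate-early list (0.938). The second BPA10 array stood apart, lowest, in Ccna2 (0.879) and Adcyap1r1 (0.928). The first BPA100 array was apart in Dnaja1 (0.850, highest) and in the fatty acid oxidation list (0.838, lowest). The second BPA100 array was lowest in Cenpa (0.836), Prss2 (0.880) and the heat shock list (0.916).

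Both BPA10 arrays stood above and both BPA100 arrays below the vehicle mean for 2 lists of other cell types, the second BPA10 array by at most 0.01. The BPA100 minus BPA10 difference of the mean level was -0.40 for duct markers and -0.70 for stellate cell and fibroblast markers. These differences between doses were not tested as lists.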

How the results depend on the processing

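Results were recomputed under up to 19 other settings. Of the 91 genes followed, 84 kept their direction in every one. Settings that changed only the variance model, array weights, pooling of doses, replicate block or brightness filter gave a probe set the same difference. They could not turn a gene. Quantile normalization turned Ccnd2 (-0.01), Hadh (-0.04), Gcg (-0.05), Sst (-0.04), Iapp (-0.06) and Ppy (-0.04), and the acinar covariate turned Foxm1 (-0.17). Leaving out 1 array turned 0 of the 91, but a gene without overlap cannot turn in such a fit. The choice of genes thus partly fixed that 0. In these fits 25 of the 91 moved by over 1.5 times, and 21 of the 25 moved without one or the other vehicle array. Beside those given with their genes, the second vehicle array moved Ccna2 (0.26), Socs2 (-0.27), Mx1 (0.91), Iigp1 (0.41), Dnaja1 (-0.17), Nr1d2 (-0.40), Per3 (-0.26), Prss2 (0.30), Thy1 (0.34), Cpa1 (0.29) and Atp5g2 (-0.16). The first moved Plk1 (0.75), Aplnr (0.55) and Arhgap39 (-0.53), the first BPA10 array Dhcr7 (0.41), the second Ccnd2 (0.11), and the first BPA100 array Ins2 (0.02) and Iapp (0.16). The immediate-early median was -0.06 on arrays of 1 mouse and -0.30 to -0.13 leaving out arrays. The count of passing probe sets was 1 after median centring and 1 with the replicate number as a block, both times Golt1b (adjusted p 0.0316 and 0.0383). It ranged from 0 to 7 when each array was left out in turn, 7 of them without vehicle replicate 1, where Golt1b had an adjusted p of 0.00991. Counts at an unadjusted p under 0.05 were 1153 higher with no filter, 1129 higher with the replicate block, 492 lower at the 60th percentile filter and 527 lower with the acinar covariate. Leaving out arrays gave 461 to 1000 higher and 323 to 1040 lower. Without overlap there were 1194 lower after median centring and 1317 lower at the 60th percentile. On arrays of 1 mouse there were 7453 higher and 6148 lower, where fewer arrays make separation easier. Leaving out arrays gave 2559 to 6018 higher and 2567 to 5309 lower. Groups that do not overlap stay apart when 1 array is left out. Such counts, also those of the mitosis list below, cannot then fall under the counts of the full set. The mitosis median was 0.55 with a pseudocount of 16 and 0.57 to 0.74 leaving out arrays, its genes at that p 29 to 43 (lowest without vehicle replicate 2), and those without overlap 46 to 56. Same-numbered arrays deviated together at correlations of 0.19, 0.20 and 0.08, so the numbers were not taken to pair them. With the replicate block, 46 mitosis genes had that p, and the block changed no other call of a named gene. The interferon median was 0.30 on arrays of 1 mouse and 0.12 to 0.28 leaving out arrays, and the cholesterol median was 0.16 with the acinar covariate. The cause of these shifts was not tested.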
